A study of Rattus norvegicus with 4 samples.

Results

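The genes described here encode integrins, cadherins, protocadherins, claudins and other proteins that hold cells to each other or to the extracellular matrix. Members were picked by a rule on their symbols, which was set with earlier results of these data known. It took rows named as integrin alpha or beta chains (Itga, Itgb), cadherins (Cdh), protocadherins (Pcdh), claudins (Cldn) or zonula occludens proteins (Tjp). It also took intercellular adhesion molecules (Icam), junctional adhesion molecules (Jam), Vcam1, F11r, Ocln, Ctnna1 and Ctnnd1. The rows Itgb1bp1, Itgb1bp2 and Itgb3bp, which name proteins that bind integrin tails, were left out. This gave 125 of the 17778 gene rows. Of the 125, 26 had a mean of at least 1 FPKM (fragments scaled to the length of the transcript and the mapped fragments of the library) over the 4 libraries and were tested, 64 were lower but above 0 in at least 1 library, and 35 were listed at 0 in all 4. The chains Itgav and Itga3 are not analysed here.

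RNA came from RSC96, an established rat Schwann cell line, at the 4th generation and after a night without serum. Cells labelled IL-22 received 100 ng/ml recombinant rat IL-22 for 48 h, and control cells received the solvent of IL-22, 0.1% bovine serum albumin, with no duration given. There were 2 libraries per group. The labels do not say whether these are separate cultures, so p-values measure only the spread between them, which may be technical. Both groups are the same line, and no label names a genetic change in either. Of 11 Schwann cell marker genes with a row 8 stayed under 1 FPKM in every library, among them Sox10 (at most 0.0315 FPKM), S100b (at most 0.0760 FPKM) and Mbp, which was listed at 0 in all 4 libraries. The other 3 were low and moved both ways. Each exceeded 1 FPKM only in the group where it was higher, so a difference was built into its being named. Egr2, a transcription factor of myelination, measured 4.63 and 5.60 FPKM in the IL-22 libraries, against 0.440 and 0.480 FPKM in the controls, and Erbb3, the neuregulin receptor, measured 1.51 and 1.62 FPKM in the IL-22 libraries, against 0.819 and 0.685 FPKM in the controls. Gfap, a glial filament protein, measured 0.496 and 0.810 FPKM in the IL-22 libraries, against 1.76 and 1.60 FPKM in the controls.

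Integrins are receptors of paired alpha and beta chains. The alpha chain largely sets the ligand (collagen, laminin or fibronectin), and the tails connect through talin and kindlin to actin. Cadherins bind like cadherins on the next cell and are anchored by catenins, while claudins, occludin and junctional adhesion molecules form tight junctions on scaffolds of zonula occludens proteins. In Schwann cells, laminin-binding integrins attach the cell to the basal lamina and N-cadherin (Cdh2) takes part in contacts with axons and other Schwann cells.

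Judged from the steps between low values, depth relative to control replicate 1 was 1.08 in both IL-22 libraries and 1.28 in control replicate 2. Total fragment counts are unknown, so no counting interval is given. Markers of endothelial cells, leukocytes and epithelium were mostly under 1 FPKM, while several fibroblast and perineurial markers were abundant. Of 11 endothelial marker genes 9 stayed under 1 FPKM in every library, with a summed list level of 4.96 and 5.23 FPKM in the IL-22 libraries and 3.25 and 2.98 FPKM in the controls. That sum hides genes that lay apart. Flt1 measured 3.55 and 3.40 FPKM in the IL-22 libraries, against 1.13 FPKM in both controls. Tek, which was under a mean of 1 FPKM and not tested, measured 0.361 and 0.232 FPKM in the IL-22 libraries, against 1.45 and 1.24 FPKM in the controls. Of 17 leukocyte and macrophage genes 15 stayed under 1 FPKM, with summed levels of 7.37 and 4.30 FPKM in the IL-22 libraries and 4.47 and 4.22 FPKM in the controls, and Ptprc, which marks all leukocytes, reached at most 0.0252 FPKM. Of 12 epithelial genes 10 stayed under 1 FPKM, with summed levels of 11.8 and 11.9 FPKM in the IL-22 libraries and 9.83 and 9.22 FPKM in the controls, most of it from the member Cldn4. Fibroblast and perineurial genes were expressed in both groups, and 5 of the 11 stayed under 1 FPKM, with Dcn and Lum listed at 0 in all 4 libraries. Their summed level was 746 and 779 FPKM in the IL-22 libraries and 541 and 533 FPKM in the controls, of which the glucose transporter gene Slc2a1 made up 340 and 369 FPKM with IL-22 and 132 and 133 FPKM in controls. The surface protein gene Thy1 measured 242 and 241 FPKM in the IL-22 libraries and 201 and 222 FPKM in the controls, and the collagen gene Col1a2 measured 144 and 148 FPKM in the IL-22 libraries and 186 and 159 FPKM in the controls. By the limma test used below, Slc2a1, Thy1, Pdgfra (0.33) and Pdgfrb (0.39) were higher with IL-22, and Col1a2 (-0.23) and Col1a1 (-0.55) were lower. The part of these levels in the results below was not tested. In bulk RNA, fewer cells of a type and less RNA per cell cannot be told apart.

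The members did not move together. With limma across all 9485 tested rows, at a Benjamini-Hochberg adjusted p under 0.05, 10 of the 26 tested members were higher with IL-22, 7 were lower and 9 did not pass. That is 65.4% of the tested members called, against 58.4% of all tested rows, so the share called was near that of the whole table. Higher were 38.5%, against 27.6% of all rows, and lower were 26.9%, against 30.8%. Of the 10 higher members, Itga1 and Pcdhgb8 reached the minimum mean of 1 FPKM only through their IL-22 libraries. Their direction was thus built in, and the 38.5% includes them. Itga1 is also among the 3 large rises below. With a minimum of 5 FPKM the split was 7 higher and 7 lower. With quantile normalization the split was 8 higher and 10 lower, and without IL-22 replicate 1 it was 6 higher and 7 lower. The median difference of the tested members was 0.042 on the log2(FPKM + 1) scale, against -0.022 for all tested rows. This median was 0.089 without control replicate 2 and 0.069 without IL-22 replicate 2, and it changed sign without control replicate 1 (-0.0151) or IL-22 replicate 1 (-0.0133), so the median difference of tested members has no settled direction. The median size of the difference regardless of sign was 0.35, against 0.32 for all tested rows. Most changes were small: 3 members were higher (Icam1, Itga1 and Itga7) and 1 lower (Cdh3) by at least 1 on that scale with no overlap between the groups, where 4.68% and 2.84% of all tested rows were. Cdh3 and Itga7 lie close to that limit: Cdh3 falls short of it without IL-22 replicate 1 or with quantile normalization, Itga7 without control replicate 2 or IL-22 replicate 2, and both with a pseudocount of 5. The groups did not overlap in 25 of the 26, where the share over all tested rows was 80.1%. Differences below are given as IL-22 minus control in log2(FPKM + 1), with the standard error from the fit.

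**Figure D1:**
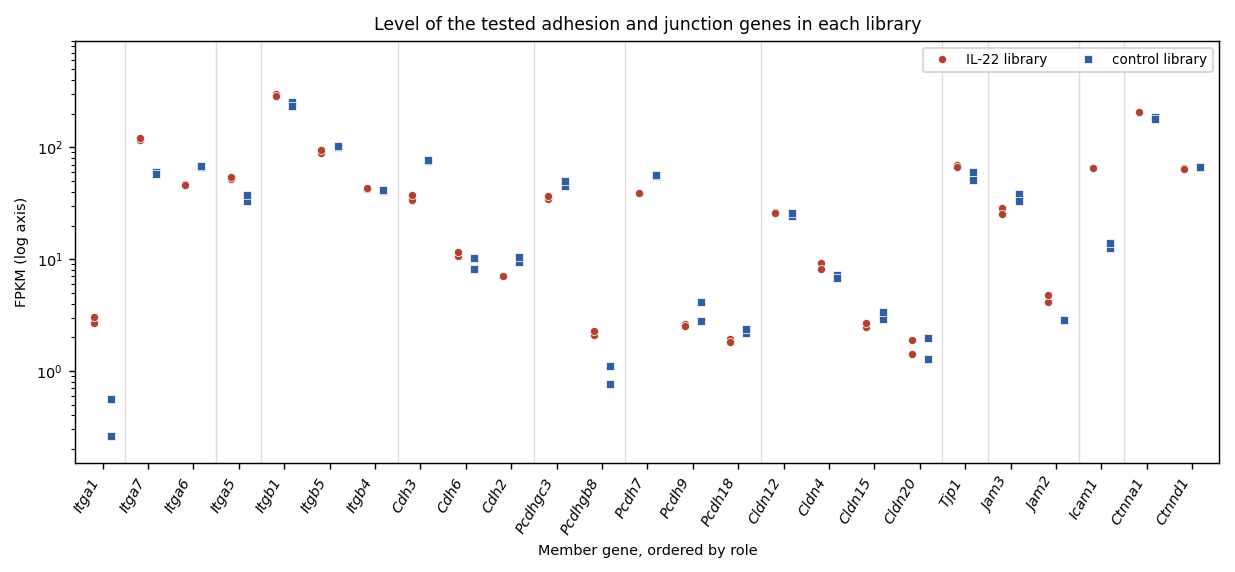
FPKM of 25 of the 26 tested members in each library on a log axis, with IL-22 libraries as circles left of the control libraries as squares, and vertical lines between groups of related genes. Icam1, Itga1 and Itga7 lie higher in both IL-22 libraries and Cdh3 lies lower, while Itgb1 is the most abundant member in every library.

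Among integrin alpha chains, the 2 laminin receptors tested changed in opposite directions. Itga7, which pairs with Itgb1 to bind laminin and is best known from muscle and Schwann cells, measured 117 and 121 FPKM in the IL-22 libraries, against 60.7 and 57.4 FPKM in the controls. Itga7 therefore stood 2.02-fold higher with IL-22 (1.001 ± 0.066, limma adjusted p = 4.07e-06), in both IL-22 libraries. Itga6, the laminin chain that pairs with Itgb1 or Itgb4, measured 47.5 and 45.9 FPKM in the IL-22 libraries, against 67.2 and 67.8 FPKM in the controls. It fell (-0.52 ± 0.07, limma adjusted p = 0.000173), and the groups did not overlap. The ratio of Itga7 to Itga6, chosen after their values were seen, was 2.46 and 2.64 in the IL-22 libraries and 0.903 and 0.846 in the controls. Of these 2 chains, Itga6 was the more abundant in both controls and Itga7 in both IL-22 libraries.

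The collagen and fibronectin receptors that were tested rose. Itga1, a collagen-binding chain, measured 2.69 and 3.02 FPKM in the IL-22 libraries, against 0.260 and 0.557 FPKM in the controls. The mean was 2.86 ± 0.231 FPKM with IL-22 and 0.408 ± 0.210 FPKM in controls (SD, n = 2 libraries each), and the rise was 1.46 ± 0.18 (limma adjusted p = 0.000126). Itga1 passed the expression minimum only through its IL-22 libraries, so a difference was built into its being tested, and the size depends on the pseudocount, at 2.60 with 0.1 and 0.54 with 5. Itga5, the chain of the main fibronectin receptor, measured 51.7 and 54.7 FPKM in the IL-22 libraries, against 33.4 and 37.3 FPKM in the controls. Both IL-22 libraries lay above both controls (0.58 ± 0.08, limma adjusted p = 0.000268). Of the other alpha chains, Itga10, Itga11 and Itga8 did not exceed 0.671 FPKM in any library and Itga4 was listed at 0 in all 4. The 4 alpha chains typical of leukocytes, Itgad, Itgae, Itgal and Itgam, stayed at or below 0.721 FPKM.

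Differences among the beta chains were smaller. Itgb1, the common partner of most alpha chains, measured 299 and 288 FPKM in the IL-22 libraries, against 252 and 236 FPKM in the controls, and was the most abundant of all 125 members. It rose by 0.26 ± 0.06 (limma adjusted p = 0.0064), a call lost without IL-22 replicate 1 (limma adjusted p = 0.0692, with a range of 0.000896 to 0.0692 over 13 alternatives). Itgb5, a partner of the alpha v chain in vitronectin binding, measured 88.9 and 94.7 FPKM in the IL-22 libraries and 101 and 103 FPKM in the controls and did not pass (-0.16 ± 0.07, limma adjusted p = 0.0678). Itgb4, which pairs with Itga6 alone, measured 42.5 and 43.7 FPKM in the IL-22 libraries and 40.7 and 41.3 FPKM in the controls and did not pass (0.07 ± 0.07, limma adjusted p = 0.393). Its partner chain Itga6 fell, and whether the responses of these genes differ from each other was not tested. The other beta chains were low, with Itgb3 listed at 0 in all 4 libraries and Itgb2, Itgb6, Itgb7 and Itgb8 at no more than 0.476 FPKM.

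The make-up of the integrin pool shifted accordingly. Of the summed FPKM of all alpha chain rows, Itga7 held 53.1% and 53.6% in the IL-22 libraries and 37.3% and 34.9% in the controls. Itga6 held 21.6% and 20.3% in the IL-22 libraries and 41.3% and 41.2% in the controls. The share of Itga5 differed less, at 23.5% and 24.2% in the IL-22 libraries and 20.5% and 22.7% in the controls. Of the beta chain sum, Itgb1 held 69.4% and 67.4% in the IL-22 libraries and 64.0% and 62.0% in the controls. These shares leave out chains that have no row here, and they describe RNA, not receptor pairs.

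**Figure D2:**
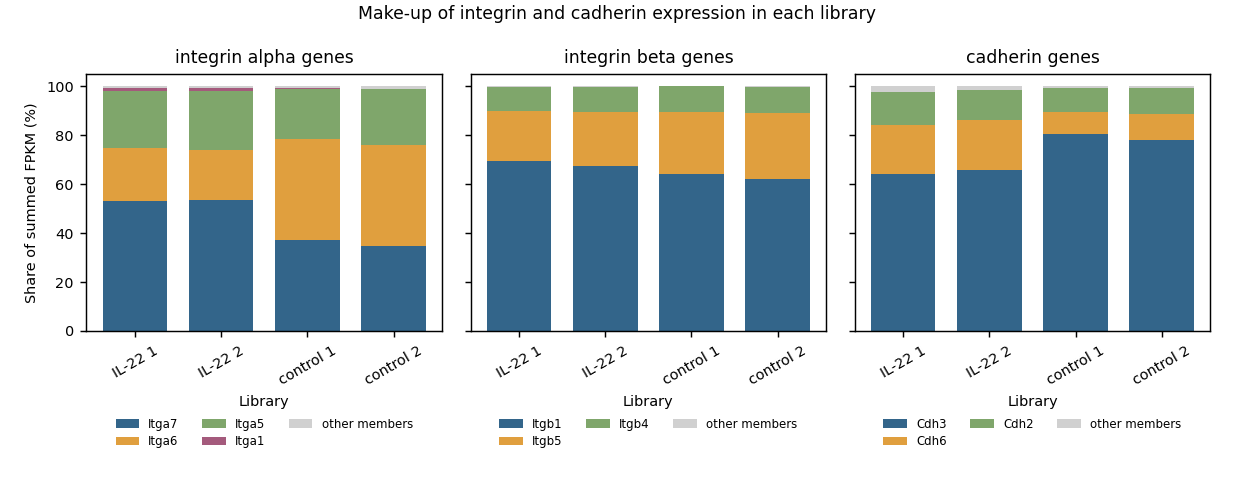
Share of the summed FPKM (%) that each gene holds among the integrin alpha, integrin beta and cadherin members in each library, with the IL-22 libraries left of the controls. Itga7 holds more than Itga6 in both IL-22 libraries and less in both controls, and the share of Cdh3 among cadherins is lower in the IL-22 libraries.

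Icam1, the endothelial and glial surface protein that leukocyte integrins bind, showed the largest difference of the tested members at a pseudocount of 1, while with 0.1 the difference of Itga1 was larger (2.60, against 2.29 for Icam1). It measured 64.8 and 65.3 FPKM in the IL-22 libraries, against 12.5 and 14.03 FPKM in the controls. The mean was 65.1 ± 0.325 FPKM with IL-22 and 13.3 ± 1.05 FPKM in controls (SD, n = 2 libraries each), a ratio of 4.90 (2.21 ± 0.08, limma adjusted p = 1.5e-07). Of the 9485 tested rows it ranked 49 from the top by difference. Vcam1, the ligand of integrins with the alpha 4 chain, was far lower, at 0.560 and 0.480 FPKM in the IL-22 libraries, against 0 and 0.0318 FPKM in the controls. It was under the expression minimum and was not tested. Icam2 reached 0.0955 FPKM in the IL-22 libraries and was listed at 0 in both controls. Icam4 measured 0.850 and 0.170 FPKM in the IL-22 libraries, against 0 and 0.113 FPKM in the controls, where IL-22 replicate 1 was the higher. The integrins that bind Icam1 on leukocytes, of the chains Itgal, Itgam and Itgb2, did not exceed 0.145 FPKM in any library.

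Since IL-22 signals through STAT3, promoter windows of the tested members were searched for the palindrome TTCNNNGAA of STAT binding sites on both strands. RefSeq windows of 300 bases in the build GRCr8 ran from 250 bases before to 50 after a gene start. They were matched by symbol for 17 of the 26 tested members. The rest, among them Itga7, Itga6, Cdh3 and Cdh2, had no window and were not searched. Of the 17, 3 held the motif: Icam1 and Itga5, which rose, and Cldn12, which did not pass. Of all 33469 windows 8.87% held it. The narrower form TTCCNGGAA was in the Icam1 window alone among the 17, against 1.27% of all windows. A letter match says nothing of binding in these cells, and a motif of this length also occurs without it. The 3 windows shown are all those of the 17 that held TTCNNNGAA. They belong to a member with a large rise, a member with a moderate rise and a member that did not pass. Capitals mark the motif, and each window reads 5′ to 3′ on the strand of its gene.
Icam1, chr8:27829595-27829894, plus strand: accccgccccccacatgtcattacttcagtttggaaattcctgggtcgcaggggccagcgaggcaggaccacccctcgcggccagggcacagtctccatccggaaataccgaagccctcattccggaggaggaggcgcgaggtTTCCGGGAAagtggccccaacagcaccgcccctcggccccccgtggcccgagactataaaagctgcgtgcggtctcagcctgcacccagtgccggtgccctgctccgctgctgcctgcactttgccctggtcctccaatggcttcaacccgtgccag
Itga5, chr7:136381256-136381555, minus strand: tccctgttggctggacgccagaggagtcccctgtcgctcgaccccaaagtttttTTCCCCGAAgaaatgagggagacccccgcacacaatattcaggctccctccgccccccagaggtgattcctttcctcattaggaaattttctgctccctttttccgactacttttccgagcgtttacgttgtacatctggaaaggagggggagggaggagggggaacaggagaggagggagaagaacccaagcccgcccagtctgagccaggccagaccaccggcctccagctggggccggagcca
Cldn12, chr4:29482060-29482359, plus strand: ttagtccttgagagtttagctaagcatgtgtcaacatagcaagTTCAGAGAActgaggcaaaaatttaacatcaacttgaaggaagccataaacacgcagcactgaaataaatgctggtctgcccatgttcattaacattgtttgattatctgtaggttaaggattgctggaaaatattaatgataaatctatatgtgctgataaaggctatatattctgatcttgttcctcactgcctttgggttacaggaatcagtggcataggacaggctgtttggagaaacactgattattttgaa
The motif starts 107 bases before the gene start in the Icam1 window, 196 in the Itga5 window and 207 in the Cldn12 window. Other motifs searched on both strands were TGANTCA of AP-1, found in the Cldn15 window (7.33% of all windows), the E-box CACGTG, found in none of the 17 (6.42%), and the NF-kappaB consensus, found in the Itga5 window alone (4.18%). The NF-kappaB consensus was taken after the matches of other spellings had been seen. A looser one was in 8 of the 17 windows, Icam1 among them, and in 47.3% of all windows. Narrower ones were in none of the 17. Every spelling asked for GGG at the start or CCC at the end. The stretch ggaaattcc in the Icam1 window has neither and was therefore not counted.

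Of the classical cadherins, P-cadherin and N-cadherin fell. Cdh3 (P-cadherin) measured 33.7 and 37.7 FPKM in the IL-22 libraries, against 75.4 and 76.5 FPKM in the controls. The mean was 35.7 ± 2.81 FPKM with IL-22 and 76.0 ± 0.766 FPKM in controls (SD, n = 2 libraries each), and the fall of -1.07 ± 0.08 (limma adjusted p = 5.85e-06) was the largest of any member in that direction. Cdh2 (N-cadherin) measured 7.04 and 7.12 FPKM in the IL-22 libraries, against 9.40 and 10.6 FPKM in the controls. It fell (-0.44 ± 0.10, limma adjusted p = 0.00574), and both IL-22 libraries lay under both controls. Cdh6 (K-cadherin) measured 10.7 and 11.5 FPKM in the IL-22 libraries and 8.16 and 10.2 FPKM in the controls and did not pass (0.25 ± 0.12, limma adjusted p = 0.098), although it passed without control replicate 2 (limma adjusted p = 0.038). Cdh3 held 64.1% and 65.9% of the summed cadherin FPKM in the IL-22 libraries and 80.7% and 78.2% in the controls, so it led the family in every library.

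The cadherins that name other lineages were close to 0. E-cadherin (Cdh1) reached 0.0513 FPKM, and VE-cadherin (Cdh5), which joins endothelial cells, was at 0.104 and 0.260 FPKM in the IL-22 libraries and listed at 0 in both controls. Cdh19, a cadherin of Schwann cell precursors, was listed at 0 in all 4 libraries. In all, 12 of the 15 classical cadherins lay under the expression minimum, 7 of them at 0 in every library, as did all 4 other cadherins. The highest of them was Cdh17, at 0.839 and 0.314 FPKM in the IL-22 libraries and 0.152 and 0.325 FPKM in the controls, where the groups overlapped.

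The 2 catenins among the members, Ctnna1 and Ctnnd1, were abundant and differed little. Ctnna1 (alpha-catenin, which connects the complex to actin) measured 205 and 207 FPKM in the IL-22 libraries, against 188 and 179 FPKM in the controls. Its call (0.17 ± 0.06, limma adjusted p = 0.0412) was lost under 5 of 13 alternatives: with quantile normalization, with no trend in eBayes, and on leaving out control replicate 2 or either IL-22 replicate (with an adjusted limma p between 0.032 and 0.216). Ctnnd1 (p120-catenin, which keeps cadherins at the membrane) measured 65.2 and 63.8 FPKM in the IL-22 libraries and 66.5 and 67.2 FPKM in the controls and did not pass (-0.05 ± 0.06, limma adjusted p = 0.513).

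Of the zonula occludens scaffolds, Tjp1 (ZO-1) measured 69.8 and 66.8 FPKM in the IL-22 libraries, against 51.4 and 59.9 FPKM in the controls. It was higher by 0.30 ± 0.08 (limma adjusted p = 0.0139), a call lost with no filter and on leaving out control replicate 1 or IL-22 replicate 1 (with an adjusted limma p between 0.00157 and 0.0713 over 13 alternatives). Tjp3 stayed at or below 0.730 FPKM, and occludin (Ocln) was listed at 0 in all 4 libraries.

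Junctional adhesion molecules split. Jam2, which binds Jam3 on a neighbouring cell, measured 4.17 and 4.74 FPKM in the IL-22 libraries, against 2.85 and 2.87 FPKM in the controls. It was higher by 0.50 ± 0.13 (limma adjusted p = 0.00894), a call lost without IL-22 replicate 2 (with an adjusted limma p between 0.00428 and 0.067 over 12 alternatives), and by 0.27 with a pseudocount of 5. Jam3 measured 28.5 and 25.1 FPKM in the IL-22 libraries, against 38.6 and 32.9 FPKM in the controls. It was lower by -0.40 ± 0.10 (limma adjusted p = 0.00695), a call lost without control replicate 1 (with an adjusted limma p between 0.000123 and 0.0804 over 13 alternatives). F11r (JAM-A) was at 0.0509 FPKM in control replicate 2 and listed at 0 in the other 3 libraries.

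Of 22 claudins, the strands of the tight junction seal, 4 were tested and 1 passed. Cldn12 led the family at 26.6 and 25.8 FPKM in the IL-22 libraries and 24.4 and 25.6 FPKM in the controls and did not pass (0.06 ± 0.08, limma adjusted p = 0.503). Cldn4 measured 9.22 and 8.17 FPKM in the IL-22 libraries, against 7.19 and 6.72 FPKM in the controls. Its call (0.28 ± 0.11, limma adjusted p = 0.048) was lost under 6 of 13 alternatives, namely with no filter, with quantile normalization and without any 1 of the 4 libraries (with an adjusted limma p between 0.0379 and 0.275). Cldn15 (2.47 and 2.69 FPKM with IL-22, 2.90 and 3.39 FPKM in controls) passed only with quantile normalization, and Cldn20 (1.89 and 1.41 FPKM with IL-22, 1.27 and 1.98 FPKM in controls) overlapped between the groups. The other 18 did not exceed 0.615 FPKM in any library, and 5 of them were listed at 0 throughout. Cldn19, the claudin of Schwann cell myelin, did not exceed 0.173 FPKM.

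Protocadherins, cadherin relatives best known from neurons, were mostly at or near 0. Of 39 members of the clustered families 15 were listed at 0 in all 4 libraries and 2 were tested. Genes within the alpha and the gamma cluster share exons, so reads could be split between their rows. Pcdhgc3 measured 34.3 and 36.4 FPKM in the IL-22 libraries, against 44.9 and 50.1 FPKM in the controls. It fell (-0.41 ± 0.08, limma adjusted p = 0.00192). Pcdhgb8 measured 2.10 and 2.28 FPKM in the IL-22 libraries, against 1.10 and 0.756 FPKM in the controls, and was higher (0.73 ± 0.17, limma adjusted p = 0.00471). Like Itga1 it passed the minimum only through the IL-22 libraries, and its difference was 1.18 with a pseudocount of 0.1 and 0.28 with 5. Because of the shared exons these gamma-cluster rows are uncertain.

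Of the 10 protocadherins outside the clusters, Pcdh7, a homophilic adhesion protein, was the most abundant at 38.9 and 39.4 FPKM in the IL-22 libraries, against 55.0 and 57.1 FPKM in the controls. It fell (-0.51 ± 0.07, limma adjusted p = 0.000246). Pcdh9 (2.65 and 2.52 FPKM with IL-22, 2.78 and 4.16 FPKM in controls) and Pcdh18 (1.92 and 1.82 FPKM with IL-22, 2.19 and 2.35 FPKM in controls) did not pass (limma adjusted p = 0.152 and 0.288). Both passed with quantile normalization, and Pcdh9 also without control replicate 1, whose value was the lower of the controls.

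**Figure D3:**
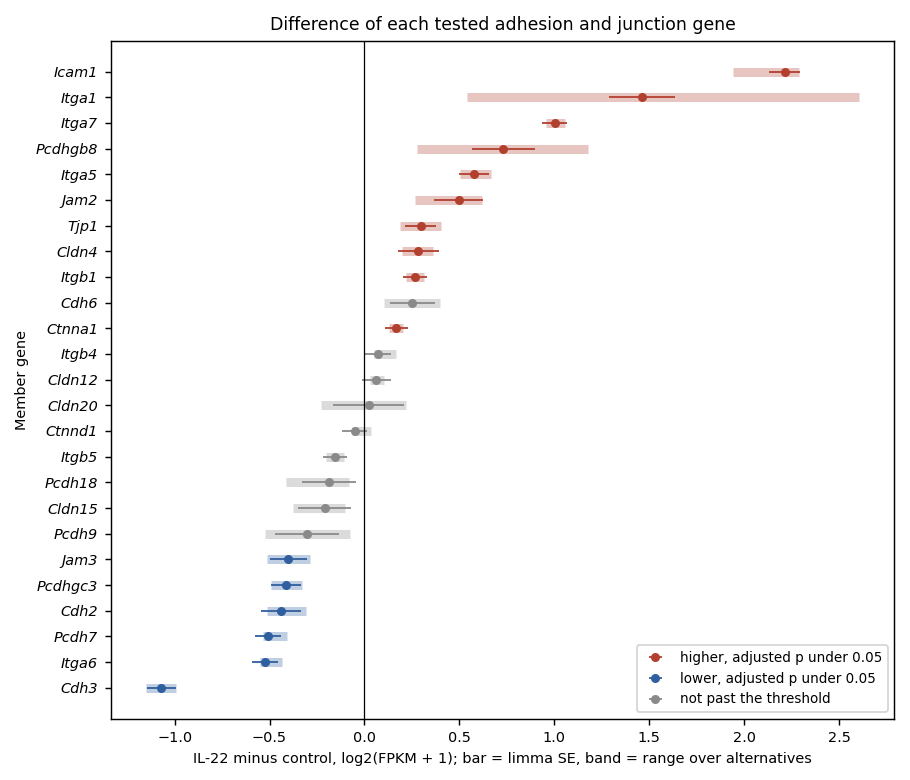
Difference of 25 of the 26 tested members, IL-22 minus control in log2(FPKM + 1), with the standard error as a bar and the range over the alternatives as a band. The 10 higher members run up to 2.21 for Icam1, the lower ones down to -1.07 for Cdh3, and the bands of Itga1 and Pcdhgb8 are wide as these differences change with the pseudocount.

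Among the 99 members under the expression minimum, 13 reached 0.3 FPKM in at least 1 library. Vcam1, Itgb8, the beta chain that activates latent TGF-beta, and Itgb7, a beta chain of lymphocytes, lay higher in both IL-22 libraries. So did Tjp3, Itga11, Cldn6 and Icam4. Itgae, which pairs with Itgb7, lay lower in both, as did Pcdha4. Itgb8 was at 0.476 and 0.346 FPKM in the IL-22 libraries and at 0 and 0.103 FPKM in the controls. Fitted without the filter, 64 of the 99 could be tested and 5 passed at a limma adjusted p under 0.05. These were Vcam1 (0.58 ± 0.06, limma adjusted p = 0.00425), Itgb8, Itgb7, Pcdha7 and Itgae. Of all 12482 rows in that fit 40.7% passed, but these rows include the 9485 at or above the expression minimum. That percentage is therefore no background for low genes, and the share among rows under the minimum was not computed. The number of fragments behind such levels is unknown, so no fold is given.

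**Figure D4:**
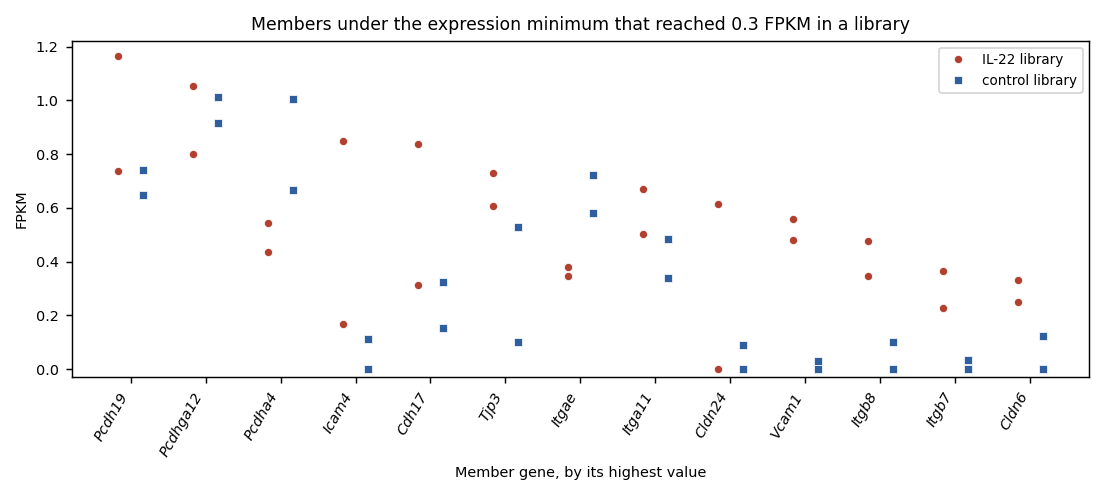
FPKM of the 13 members under the expression minimum that reached 0.3 FPKM in a library, with IL-22 libraries as circles left of control libraries as squares. Vcam1, Itgb8 and Itgb7 lie near 0 in both controls and between 0.228 and 0.560 FPKM in the IL-22 libraries, while Icam4, Cdh17 and Cldn24 rest on IL-22 replicate 1.

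Genes that work with these proteins moved both ways too. Of 92 tested genes on 7 lists of partner proteins, 38 were higher, 29 lower and 25 did not pass. That is 72.8% called, against 58.4% of all tested rows, with 41.3% higher against 27.6% and 31.5% lower against 30.8%. They had a median difference of 0.14, against -0.022 for all tested rows. The 38 higher genes include Cxadr and Plekha7. Both reached the minimum mean of 1 FPKM only through their IL-22 libraries, so their direction was built in. The lists were chosen with earlier results of these data known, so an excess over all rows is no evidence about the partner genes. Their differences come from the same limma fit, and each gene said to have risen or fallen passed its threshold. Focal adhesion and integrin activation genes gave 7 higher and 13 lower of 30 (median -0.08), with 4 higher without IL-22 replicate 2. Called were 66.7% of this list, against 58.4% of all tested rows, with 23.3% higher, against 27.6%. Parva and Parvb, the parvins that join integrin-linked kinase to actin, moved apart. Parva measured 115 and 113 FPKM in the IL-22 libraries, against 228 and 212 FPKM in the controls, and fell (-0.94). Parvb measured 74.8 and 77.2 FPKM in the IL-22 libraries, against 38.5 and 40.7 FPKM in the controls, and rose (0.92). The kindlin gene Fermt1 (-0.56), the paxillin relative Tgfb1i1 (-0.57) and the scaffold gene Nedd9 (0.53) passed as well, with the call of Fermt1 lost without control replicate 1 or IL-22 replicate 2 and that of Nedd9 lost with quantile normalization or without IL-22 replicate 2.

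Partners of cadherins gave 6 higher and 6 lower of 15 (median 0.06), with 3 lower without control replicate 1 or IL-22 replicate 2. Called were 80.0% of this list, against 58.4% of all tested rows. Its higher genes include Plekha7, which passed the minimum only through its IL-22 libraries, so its direction was built in. Ctnnb1 (beta-catenin) measured 235 and 243 FPKM in the IL-22 libraries, against 334 and 338 FPKM in the controls, and fell (-0.49). Its relative Jup (plakoglobin) measured 5.17 and 5.27 FPKM in the IL-22 libraries, against 2.14 and 2.26 FPKM in the controls, and rose (0.96). The nectin gene Pvrl2 rose by 1.22 and Ctnnd2 by 0.70, and the LIM-domain genes Ajuba (-1.15) and Limd1 (-0.59) fell. Tight junction scaffold, polarity and angulin genes gave 10 higher and 3 lower of 20 (median 0.21), or 6 higher without IL-22 replicate 2. Its 65.0% called was near the 58.4% of all tested rows. The list was led by Cxadr, an adhesion molecule and virus receptor, at 4.57 and 4.33 FPKM in the IL-22 libraries, against 0.767 and 0.465 FPKM in the controls (1.76). Cxadr passed the minimum only through its IL-22 libraries. The scaffold gene Magi1 (0.77) and the polarity gene Llgl1 (0.59) were also higher, and the polarity genes Inadl (-0.66) and Scrib (-0.55) were lower, as was Prkci (-0.31), whose call was lost without the filter and without control replicate 1 or IL-22 replicate 1.

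Desmosome genes were largely at or near 0, with 3 of 10 tested. Pkp1 rose (0.31) and Ppl fell (-0.49). Of the gap junction genes 3 of 20 were tested and all 3 were lower, where 30.8% of all tested rows were lower. This list too was chosen with earlier results of these data known, so the excess is no evidence about it. The main connexin gene Gja1 measured 98.5 and 98.7 FPKM in the IL-22 libraries, against 109 and 120 FPKM in the controls (-0.21). The calls of Gja1 and Gjc1 (-0.27) were each lost under 4 of 13 alternatives, so that list held 1 lower gene without control replicate 2 or either IL-22 library.

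Of 14 other tested adhesion molecules 10 were higher and 2 lower (median 0.45), or 71.4% higher, against 27.6% of all tested rows. This list too was chosen with earlier results of these data known, so the excess is no evidence about it. Cd44, the hyaluronan receptor, measured 422 and 416 FPKM in the IL-22 libraries, against 172 and 201 FPKM in the controls (1.17), and the heparan sulfate proteoglycan Sdc1 measured 182 and 187 FPKM in the IL-22 libraries, against 81.1 and 84.9 FPKM in the controls (1.14). Cadm4, a contact protein of Schwann cells and axons, rose by 1.86, while its relative Cadm1 fell by 0.61. The call of Sdc2 (-0.20) was lost under 6 of 13 alternatives, among them each that left out a library, so that list then held 1 lower gene. Tetraspanins, which organise integrins in the membrane, gave 4 higher and 1 lower of 7 (median 0.19). That is 71.4% called, against 58.4% of all tested rows. Among them Cd9 (0.56), Cd82 (0.55) and Tspan7 (0.39) were higher and Tspan4 (-0.60) was lower.

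**Figure D5:**
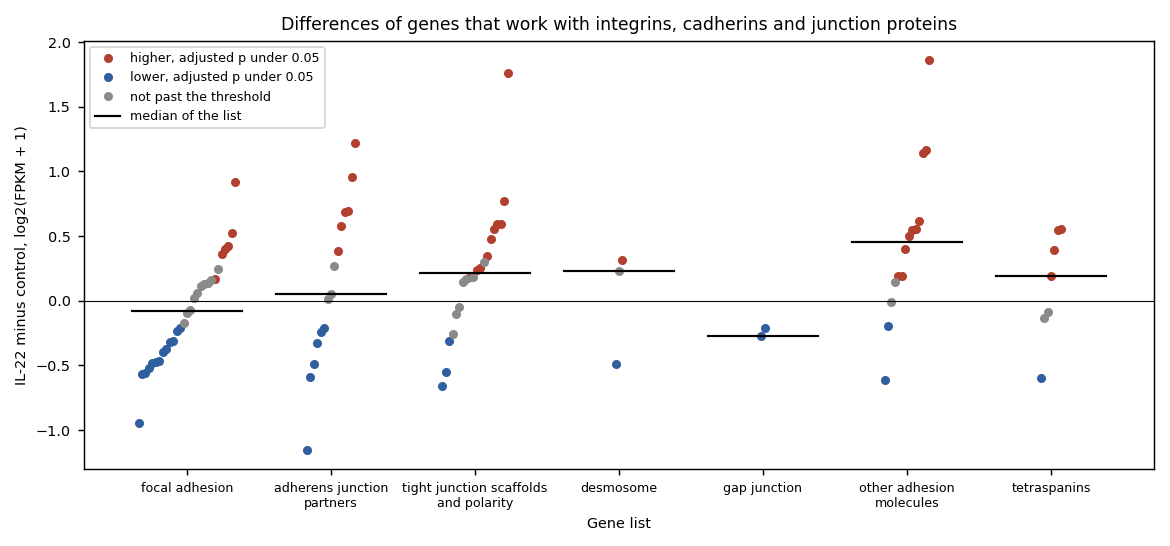
Difference (IL-22 minus control, log2(FPKM + 1)) of tested genes on the 7 partner lists, ordered within a list, with a line at the median of all tested genes of the list. Higher and lower genes occur in every list except the gap junction list, where the genes shown are lower.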

How the data were processed

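Per the labels' protocols, mRNA was selected by poly(A) and sequenced on an Illumina HiSeq machine. The authors deposited a table of FPKM per gene, each library in a column of its own. Per the submitters' processing notes, TopHat2 and Cuffdiff were used with rn5. Versions, annotation, filters, strand and further scaling were not given in the sources used here. Since FPKM are not counts, log2(FPKM + 1) was fitted with limma 3.58.1 (R 4.3.3, eBayes trend, two-sided) for the 9485 rows whose mean reached 1 FPKM, with no covariates. P-values were adjusted by Benjamini-Hochberg over these rows, with a threshold of 0.05. This scale understates the change of low genes. An exact permutation test of 2 against 2 libraries cannot give less than 0.333, and the limma p-values borrow the spread of other genes. Members and lists were chosen with earlier results of these data known. Members named were those past the threshold, those with the highest means of their role and 14 set genes. Cldn15, Cldn20 and Pcdh18, also tested, were named to complete the counts of their families. From each partner list up to 3 genes past the threshold per direction were named. Plekha7 was named besides because its direction was built in. A symbol with several rows was taken by its highest mean. An exact 0 can be a failed estimate, so such genes are described as listed at 0. Relative depth is the commonest ratio between libraries of rows under 0.15 FPKM. Promoter windows are RefSeq's for GRCr8 and were joined by symbol, with no coordinates of rn5 used. A few genes that the naming rule picked are not reported here, singly or in the figures, but are in the counts. A second table, of lncRNAs, was not used. Figures were drawn with Python 3.11.15, pandas 2.3.3 and matplotlib 3.10.9. Alternatives changed the pseudocount, the filter, the normalization (quantile or size factors) or the eBayes model, added the replicate number as a block, or left out 1 library.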

Additional observations from a re-analysis of the deposited data

How the results depend on the processing

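Of the 17 called members 11 (5 higher and 6 lower) kept direction and call under every alternative they could be fitted in, among them Icam1, Itga5 and Itga7 higher, and Cdh2, Cdh3, Itga6, Pcdh7 and Pcdhgc3 lower. Itga1 and Pcdhgb8, also among the 11, passed the expression minimum only through their IL-22 libraries and were not fitted at a minimum of 5 FPKM, so their calls say nothing of stability. Itgb1, Ctnna1, Tjp1, Cldn4, Jam2 and Jam3 lost the call under at least 1. Of the 32 partner genes picked by the naming rule 26 kept theirs under every alternative they could be fitted in. Cxadr, among the 26, passed the expression minimum only through its IL-22 libraries. It was not fitted at a minimum of 5 FPKM, so its call says nothing of stability either. The count of higher members was 10, and from 6 to 9 when 1 library was left out, while the count of lower members stayed at 7. The library left alone in its group was then taken to have the spread of the other. Members at least 1 log2 higher numbered 3, but 1 with a pseudocount of 5, and from 2 to 3 without a library. Cdh3 was the only member at least 1 log2 lower, and 0 were with a pseudocount of 5 or quantile normalization, or in the range of 0 to 1 without a library. The median difference of tested members was 0.069 with quantile normalization and ran from -0.0151 to 0.089 without a library. Members that did not pass and changed sign were Ctnnd1 with quantile normalization (0.0358) and the difference of Cldn20 with quantile normalization (-0.227) or when 1 library was left out (from -0.175 to 0.218). The cause was not tested. The replicate numbers share no stated source, and deviations of same-numbered libraries did not correlate across genes (Pearson r = -0.002). With the replicate block 10 members were higher and 7 lower, as without it. Read totals are unknown, so the counting error of members under 1 FPKM cannot be given.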
